A study of Mus musculus with 47 samples.

Results

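Hoxb1 and Hoxd1 of paralog group 1, Hoxa2 and Hoxb2 of paralog group 2, and Hoxa3, Hoxb3 and Hoxd3 of paralog group 3 are 7 of the 35856 gene symbols measured in this series of mouse cultures. They were taken by name, as Hox genes of the 3 most anterior paralog groups, and their levels are given in all 16 combinations of cell line, stage and treatment. The other 31 listed Hox genes, of paralog groups 4 to 13, serve as the nearest comparison.

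Hox genes encode homeodomain transcription factors that give cells their position along the head-to-tail axis, and in mouse they lie in clusters whose gene order matches the order of their expression domains. The paralog groups at the front of the clusters are expressed in the hindbrain, where they assign identity to its segments, the rhombomeres, and to the motor neurons that form there. Their HOX proteins bind DNA together with PBX, MEIS and PKNOX cofactors, and retinoic acid is a known inducer of the clusters. Polycomb repressive complex 2 (PRC2), which places a repressive methyl mark on histones, covers silent Hox clusters in stem cells.

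PolyA+ RNA of C57BL/6 embryonic stem cell (ESC) lines, and of neural progenitor cell (NPC) cultures made from them, was sequenced in 47 libraries. In the 3 tagged lines an auxin-inducible degron was fused to SUZ12, a core PRC2 subunit, or to one of the accessory subunits MTF2 and JARID2; the other line was untagged, and all 4 expressed the ubiquitin-ligase adaptor Tir1. Each line was left untreated or given the auxin indole-3-acetic acid at 50 µM, for 12 hours in ESC and for 5 days in NPC. Every group had 3 libraries, described as biological replicates, except auxin-treated SUZ12 NPC with 2, and what separates replicates (cultures or clones) is not given in the sources used here. ESC were kept with LIF at 100 U/ml, CHIR99021 at 3 µM and PD0325901 at 1 µM. NPC received bFGF at 10 ng/ml for 72 hours and then SAG, a Smoothened agonist that switches on Hedgehog signalling, at 500 nM for 48 hours. Each genotype is a single established line, so line and degron tag cannot be told apart, and the degron acts on the protein, so the mRNA of the tagged gene does not report its loss. In auxin-treated against untreated NPC, Suz12 mRNA averaged 163 ± 5.09 against 77.8 ± 1.4998 TPM in the SUZ12 line, Mtf2 mRNA 24.3 ± 2.56 against 21.1 ± 0.547 TPM in the MTF2 line and Jarid2 mRNA 56.6 ± 7.36 against 35.6 ± 3.31 TPM in the JARID2 line.

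Levels are TPM, the transcripts of a gene per 1000000 transcripts, a measure per length of gene that can be compared between genes. Means are given ± SD over the 3 libraries of a group, or over 2 in auxin-treated SUZ12 NPC. Depth was 3237115 to 8707922 reads per library. For NPC of the MTF2 and JARID2 lines the library titles say day 0, against NPC and 5 days in the remaining labels. In untreated NPC against untreated ESC, all 10 listed pluripotency markers were lower in each of the 4 lines, 10 of 11 neural progenitor markers were higher in each line (Sox2 was lower), and 11 of 12 hindbrain motor neuron markers were higher. These counts were the same in the MTF2 and JARID2 lines as in the others. Over all genes, 47.1% to 50.2% were higher in these comparisons. The share of all genes that was lower is not given here, so the pluripotency count has no such share beside it.

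The genes lie in the HoxA, HoxB and HoxD clusters (GENCODE M21 annotation, GRCm38). Hoxb1 spans positions 96365752 to 96368256 of chromosome 11 on the plus strand, downstream of Hoxb2 at 96350525 to 96354012 and Hoxb3 at 96323326 to 96347930. Hoxd1 spans 74762980 to 74765142 of chromosome 2 on the plus strand, next to Hoxd3 at 74711927 to 74748442. Hoxa2 spans 52162417 to 52164831 of chromosome 6 on the minus strand, next to Hoxa3 at 52169062 to 52213336. All are protein-coding, and TPM values count whole genes with no division by exon. Hoxb1 and Hoxd1 overlap no other annotated gene. Hoxa3 overlaps 9 others, Hoxa4, Hoxa5 and Hoxa6 among them, Hoxd3 overlaps 5, Hoxd4 and Haglr among them, Hoxb3 overlaps 2, and Hoxb2 and Hoxa2 overlap 1 each. The overlaps of Hoxb2 and Hoxb3 are with genes on the opposite strand only, while those of Hoxa2, Hoxa3 and Hoxd3 include genes on the same strand. The libraries kept strand, but how reads in overlaps were counted is not given in the sources used here, so the values of these 5 genes may include or lack such reads.

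RefSeq promoter sequences on GRCm38.p6, from 250 bases before to 50 bases after the transcription start, were matched for 5 of the 7 genes, all but Hoxb2 and Hoxb3. PRC2 is known to bind CG-rich DNA, and the promoters with the most and the fewest CG pairs of the 5 are printed to show that range. The Hoxd1 promoter held 29 CG pairs, those of Hoxa3 and Hoxd3 20 each, that of Hoxb1 10 and that of Hoxa2 9, against a median of 7 over 32851 promoters. The share of promoters with fewer was 87.1% for Hoxd1, 73.5% for Hoxa3 and Hoxd3, 56.5% for Hoxb1 and 54.2% for Hoxa2. The matched windows of Hoxa3 and Hoxd3 lie near the 5′ ends of annotated spans of 44275 and 36516 bases, which overlap other Hox genes. Other starts within these spans were not examined. CG pairs were not tested against expression. Capitals mark every CG in the promoters of Hoxd1 (chr2:74762730-74763029, plus strand) and Hoxa2 (chr6:52164782-52165081, minus strand), read 5′ to 3′ on the gene's strand.
Hoxd1: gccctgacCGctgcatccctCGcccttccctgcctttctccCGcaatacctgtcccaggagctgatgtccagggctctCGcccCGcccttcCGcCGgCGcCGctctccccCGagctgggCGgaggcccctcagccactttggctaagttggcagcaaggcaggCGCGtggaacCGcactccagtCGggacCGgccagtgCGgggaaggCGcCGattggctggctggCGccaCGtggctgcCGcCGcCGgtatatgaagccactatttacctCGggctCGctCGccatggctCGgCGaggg
Hoxa2: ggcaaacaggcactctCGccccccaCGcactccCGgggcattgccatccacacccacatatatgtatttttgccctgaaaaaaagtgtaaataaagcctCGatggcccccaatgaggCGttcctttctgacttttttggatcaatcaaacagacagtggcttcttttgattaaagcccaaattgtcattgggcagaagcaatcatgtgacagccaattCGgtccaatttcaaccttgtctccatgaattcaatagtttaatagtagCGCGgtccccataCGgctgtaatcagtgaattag

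Both strands of these promoters were searched for TGATNNAT, the paired site of PBX and HOX proteins, for TGACAG, a MEIS and PKNOX site, and for the direct repeat bound by retinoic acid receptors, a pair of AGGTCA with 5 bases between. TGATNNAT occurred once in Hoxb1 and once in Hoxa2, and in 8.85% of all promoters. TGACAG occurred once in Hoxa2 and once in Hoxa3, and in 19.2% of all promoters, while the direct repeat was in none of the 5 and in 3 of 32851. The absence of so rare an exact sequence from 5 promoters says nothing about other sites of these receptors. The 60 bases around each TGATNNAT match follow, in capitals at the match, for Hoxb1 (chr11:96365570-96365629, plus strand, match 162 to 155 bases before the start) and Hoxa2 (chr6:52164909-52164968, minus strand, match 111 to 104 bases before the start and on the opposite strand, so read here as its complement). A match is a run of letters, not a measured binding site.
Hoxb1: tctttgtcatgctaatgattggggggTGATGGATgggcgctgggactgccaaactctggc
Hoxa2: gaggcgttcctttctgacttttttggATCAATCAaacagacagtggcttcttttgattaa

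In NPC, Hoxb2, Hoxb3 and Hoxd3 were lower with auxin in each of the 3 degron lines, although the effect on Hoxb3 in the MTF2 line was not called different from that in untagged NPC. Auxin lowered Hoxa2 in the SUZ12 line, where it left 18.6% of the untreated mean, and raised Hoxd1 in the SUZ12 line. Differences are given as auxin minus untreated on the log2(TPM + 0.5) scale with their standard error, a scale that understates the change of low genes. The test was limma, two-sided, over all genes that reached 1 TPM in 2 or more NPC libraries, and a gene was called where its p, adjusted after Benjamini and Hochberg, was under 0.05. In the SUZ12 line 5 of the 7 genes were called, 1 higher and 4 lower, in a comparison where 56.9% of 16469 genes were called, 23.9% higher and 33% lower. In the MTF2 line 3 of 7 were called, all lower, where 8.14% of genes were called and 3.11% were lower. In the JARID2 line 3 of 7 were called, all lower, where 25% were called and 15.7% were lower. In the untagged line 0 of 7 were called, where limma called 0% of genes and 1180 had an unadjusted p under 0.05, and voom on reads recovered from the TPM values called 16 genes. Of the 7 genes 1 had an unadjusted p under 0.05 there (Hoxb3), and voom called none.

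**Figure D1:**
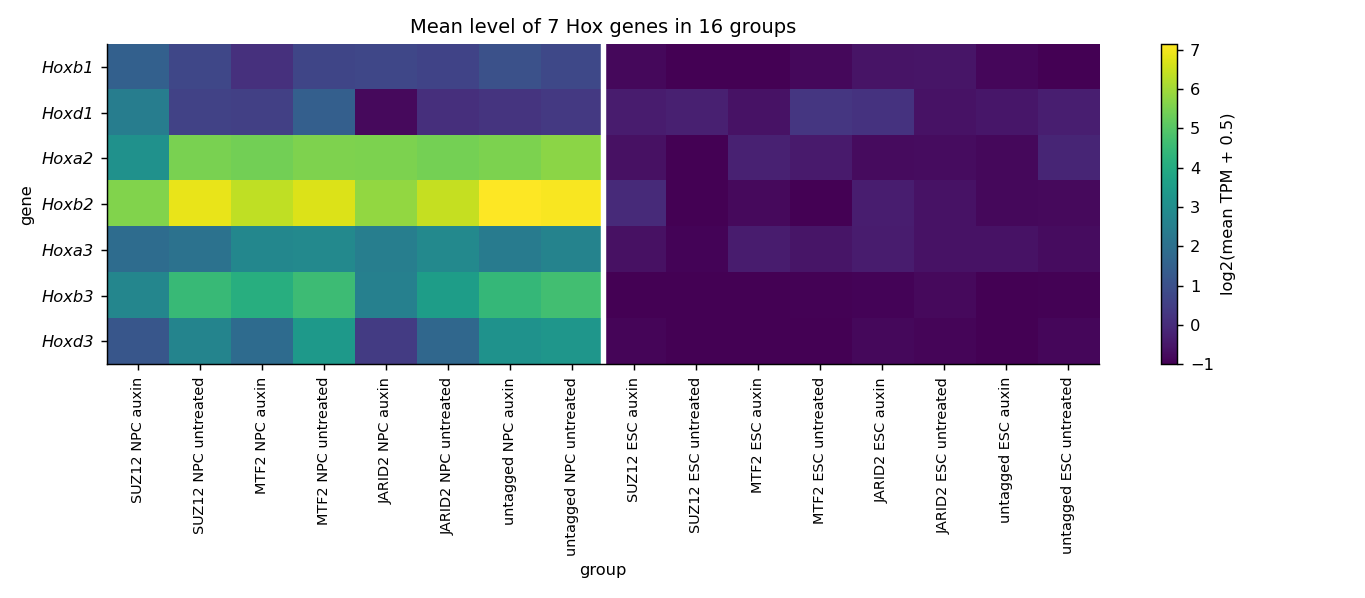
Mean level of the 7 Hox genes (rows) in the 16 groups (columns), as log2(mean TPM + 0.5) by colour, with the 8 NPC groups left of the white line and the 8 ESC groups right of it. Hoxb2 and Hoxa2 are the brightest rows in NPC, with group means up to 141 and 53.0 TPM, and every ESC group mean lies under 1 TPM.

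**Figure D2:**
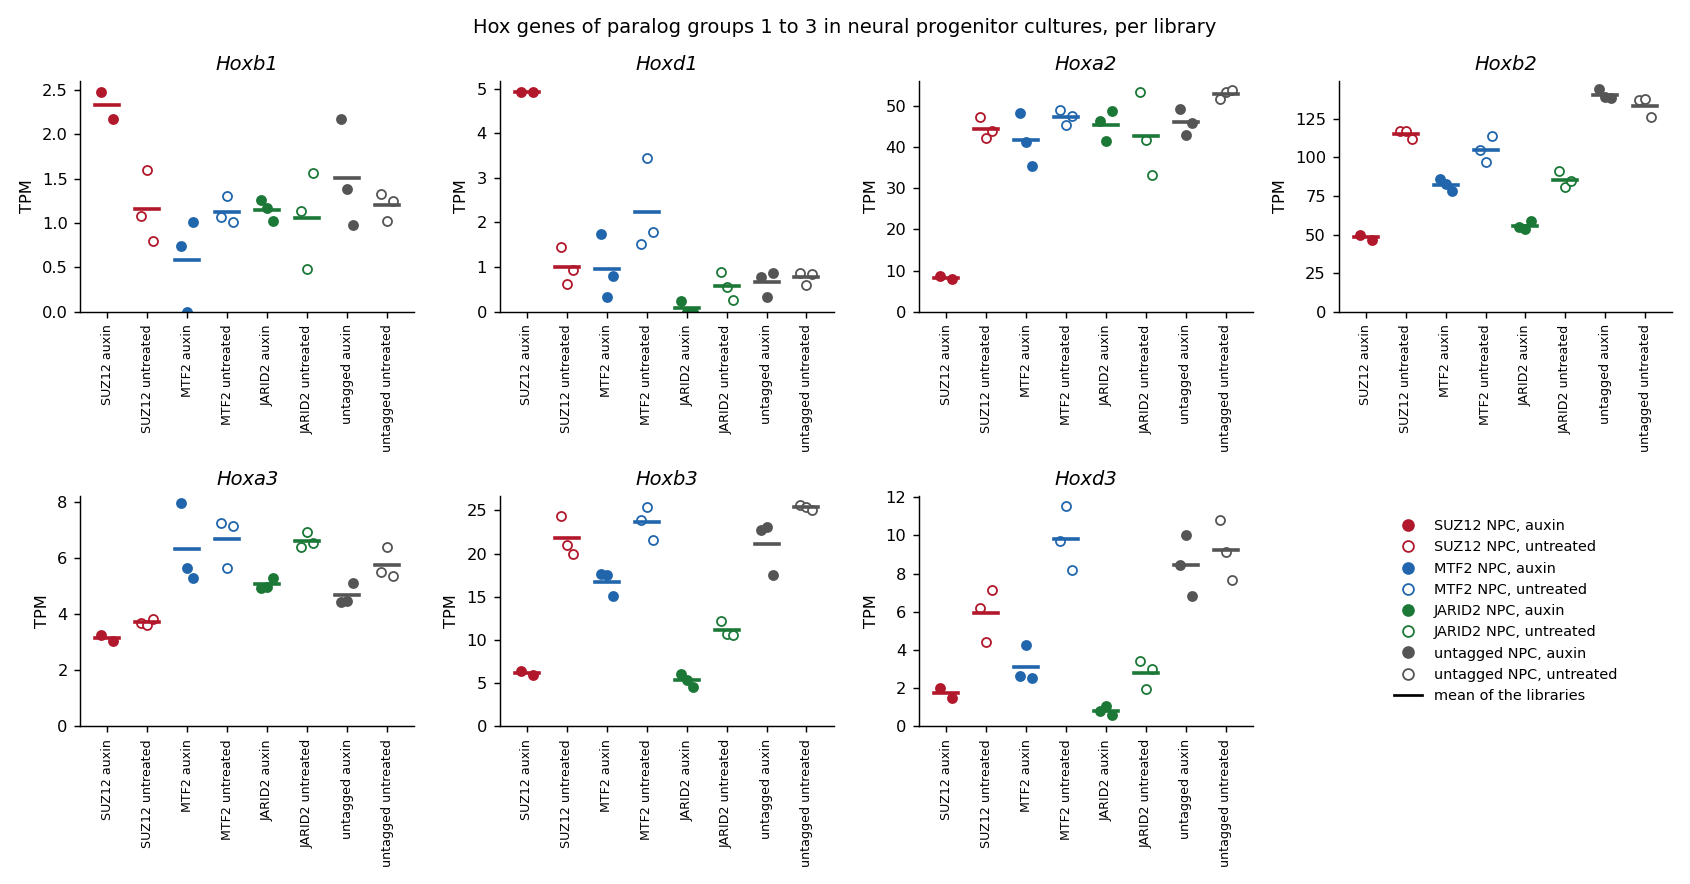
TPM of each Hox gene in each NPC library, 1 panel per gene with its own axis from 0; points are libraries and horizontal lines are group means, with auxin left of untreated in each line. Hoxa2 drops in auxin-treated SUZ12 NPC, at 7.83 and 8.68 TPM, and the auxin-treated groups of Hoxb2, Hoxb3 and Hoxd3 lie below their untreated groups in the 3 degron lines.

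Hoxb1, the gene of paralog group 1 that gives the fourth rhombomere its identity, was near the limit of detection, with 141 reads over all 23 NPC libraries. It had 2.47 and 2.17 TPM in auxin-treated SUZ12 NPC, against 1.08, 1.60 and 0.801 TPM in untreated SUZ12 NPC. MTF2 NPC had 0.744, 0 and 1.01 TPM with auxin, against 1.07, 1.30 and 1.01 TPM untreated. JARID2 NPC had 1.26, 1.17 and 1.02 TPM with auxin, against 1.13, 0.477 and 1.56 TPM untreated. The groups overlapped in the MTF2 and JARID2 lines and did not in the SUZ12 line, where both auxin-treated libraries were above all 3 untreated ones. Untagged NPC had 2.17, 1.38 and 0.977 TPM with auxin, against 1.33, 1.03 and 1.25 TPM untreated, and these also overlapped. The difference in the SUZ12 line was 0.79 ± 0.38 with an adjusted p of 0.0820, so Hoxb1 was not called there, and it rested on 26 reads in auxin-treated against 21 in untreated NPC. It passed under other settings, such as a pseudocount of 1 in place of 0.5 (0.64, adjusted p = 0.0487). Auxin-treated SUZ12 NPC had the highest mean of the 8 NPC groups, 2.32 ± 0.213 TPM (SD, n = 2), and its lower library, at 2.17 TPM, was level with the highest auxin-treated untagged library. The other 7 group means, from 0.586 to 1.51 TPM, each overlapped the next in order.

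Hoxd1, a gene of paralog group 1 known in mouse for its role in pain-sensing neurons, rose in the SUZ12 line. It had 4.92 and 4.91 TPM in auxin-treated SUZ12 NPC, against 1.45, 0.627 and 0.942 TPM in untreated SUZ12 NPC. The auxin-treated libraries were the 2 highest of all 23 NPC libraries and did not overlap the untreated ones. The difference was 1.88 ± 0.39 (adjusted p = 0.000312), resting on 47 reads in auxin-treated against 16 in untreated NPC. In MTF2 NPC Hoxd1 had 1.75, 0.330 and 0.794 TPM with auxin, against 1.51, 3.44 and 1.78 TPM untreated, which overlapped (-0.97 ± 0.35, adjusted p = 0.0948). In JARID2 NPC it had 0.246, 0 and 0 TPM with auxin, against 0.888, 0.561 and 0.262 TPM untreated, with 1 read against 7 (-0.86 ± 0.35, adjusted p = 0.0776). These last groups did not overlap, but neither difference was called. Untagged NPC had 0.785, 0.325 and 0.862 TPM with auxin, against 0.869, 0.603 and 0.840 TPM untreated. In the order of group means, auxin-treated SUZ12 NPC (4.92 ± 0.00743 TPM) stood apart from untreated MTF2 NPC (2.24 ± 1.05 TPM), which did not overlap its neighbours in the order either, and auxin-treated JARID2 NPC (0.0821 ± 0.142 TPM) stood apart at the low end. The 5 groups between, from 0.570 to 1.01 TPM, overlapped their neighbours.

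Hoxa2, the paralog group 2 gene that patterns the second rhombomere and the second branchial arch, fell in the SUZ12 line. It had 8.68 and 7.83 TPM in auxin-treated SUZ12 NPC, against 47.3, 42.1 and 43.9 TPM in untreated SUZ12 NPC. No library of any other NPC group came near the auxin-treated pair, the lowest being at 33.2 TPM. The difference was -2.36 ± 0.14 (adjusted p = 3.64e-12), on 75 reads in auxin-treated against 662 in untreated NPC. MTF2 NPC had 48.3, 41.2 and 35.4 TPM with auxin, against 49.1, 45.3 and 47.6 TPM untreated. JARID2 NPC had 46.2, 41.4 and 48.8 TPM with auxin, against 53.3, 41.8 and 33.2 TPM untreated. Both lines had overlapping groups and differences of -0.19 ± 0.12 (adjusted p = 0.374) in MTF2 and 0.11 ± 0.12 (adjusted p = 0.565) in JARID2 NPC. Untagged NPC had 49.2, 43.0 and 45.8 TPM with auxin, against 51.8, 53.3 and 53.8 TPM untreated; these groups did not overlap, yet the difference of -0.20 was not called (adjusted p = 0.780). By group mean, untreated untagged NPC was highest at 53.0 ± 1.02 TPM and auxin-treated SUZ12 NPC lowest at 8.26 ± 0.603 TPM, each apart from its neighbour, while the 6 groups between, from 41.6 to 47.3 TPM, overlapped in order.

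Hoxb2, the other gene of paralog group 2, a target of Hoxb1 in the fourth rhombomere that acts in facial motor neuron development, was the most abundant of the 7 in every NPC group. It had 49.9 and 46.8 TPM in auxin-treated SUZ12 NPC, against 117, 117 and 112 TPM in untreated SUZ12 NPC. MTF2 NPC had 86.0, 83.0 and 78.1 TPM with auxin, against 105, 96.9 and 114 TPM untreated. JARID2 NPC had 54.9, 53.7 and 58.5 TPM with auxin, against 91.1, 81.0 and 84.7 TPM untreated. In each degron line all auxin-treated libraries lay below all untreated ones. The differences were -1.25 ± 0.07 in SUZ12 NPC (adjusted p = 1.77e-12), -0.35 ± 0.06 in MTF2 NPC (adjusted p = 0.00128) and -0.61 ± 0.06 in JARID2 NPC (adjusted p = 1.55e-07). Auxin-treated means were 41.9%, 78.3% and 65.1% of the untreated means in the SUZ12, MTF2 and JARID2 lines. Untagged NPC had the highest levels, 145, 139 and 138 TPM with auxin, against 137, 138 and 126 TPM untreated, and the difference there was 0.07 (adjusted p = 0.857). The untagged groups did not overlap either, with the lowest auxin-treated library at 138.3 and the highest untreated one at 137.6 TPM. In order of means, auxin-treated untagged (141 ± 3.49 TPM) and untreated untagged NPC (134 ± 6.60 TPM) came before untreated SUZ12 (115 ± 3.12 TPM), untreated MTF2 (105 ± 8.37 TPM), untreated JARID2 (85.6 ± 5.10 TPM), auxin-treated MTF2 (82.3 ± 3.99 TPM), auxin-treated JARID2 (55.7 ± 2.53 TPM) and auxin-treated SUZ12 NPC (48.3 ± 2.19 TPM). Neighbours that overlapped were untreated SUZ12 with untreated MTF2 and untreated JARID2 with auxin-treated MTF2 NPC.

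The ratio of Hoxb2 to Hoxa2 TPM needs no scaling between libraries. It was 5.86 ± 0.163 in auxin-treated SUZ12 NPC, against 2.602 ± 0.156 in untreated SUZ12 NPC. It was 1.23 ± 0.0587 in auxin-treated JARID2 NPC, against 2.07 ± 0.433 in untreated JARID2 NPC. It was 3.06 ± 0.154 in auxin-treated against 2.53 ± 0.161 in untreated untagged NPC. The ranges did not overlap in any of these 3 lines, so the groups also separated without a degron, at 2.94 to 3.24 with auxin against 2.34 to 2.65 untreated. The ratio was higher with auxin in SUZ12 and untagged NPC and lower with auxin in JARID2 NPC. It was 2.00 ± 0.213 in auxin-treated against 2.22 ± 0.143 in untreated MTF2 NPC, which overlapped.

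Hoxa3, the paralog group 3 gene needed in mouse for thymus and parathyroid formation, was not called in any line. It had 3.24 and 3.04 TPM in auxin-treated SUZ12 NPC, against 3.67, 3.63 and 3.81 TPM in untreated SUZ12 NPC. In MTF2 NPC it had 7.97, 5.65 and 5.28 TPM with auxin, against 7.23, 5.63 and 7.12 TPM untreated. In JARID2 NPC it had 4.92, 4.96 and 5.30 TPM with auxin, against 6.38, 6.93 and 6.54 TPM untreated. Auxin-treated libraries were below untreated ones in the SUZ12 and JARID2 lines and overlapped in the MTF2 line. The differences were -0.21 ± 0.15 in SUZ12 (adjusted p = 0.256), -0.09 ± 0.14 in MTF2 (adjusted p = 0.762) and -0.36 ± 0.14 in JARID2 NPC (adjusted p = 0.0590). Untagged NPC had 4.43, 4.48 and 5.12 TPM with auxin, against 5.50, 6.40 and 5.34 TPM untreated, also without overlap, with a difference of -0.27 (adjusted p = 0.716). Group means ran from 6.66 ± 0.893 TPM in untreated MTF2 NPC to 3.14 ± 0.147 TPM in auxin-treated SUZ12 NPC. Both SUZ12 groups, untreated at 3.70 ± 0.0940 TPM, lay below every library of the other 6 groups.

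Hoxb3, of paralog group 3, which acts in hindbrain segments behind those of Hoxb1, fell in all 3 degron lines. It had 6.42 and 5.97 TPM in auxin-treated SUZ12 NPC, against 24.3, 21.0 and 20.0 TPM in untreated SUZ12 NPC. In MTF2 NPC it had 17.6, 17.5 and 15.04 TPM with auxin, against 23.9, 25.4 and 21.6 TPM untreated. In JARID2 NPC it had 6.01, 5.34 and 4.62 TPM with auxin, against 12.2, 10.7 and 10.6 TPM untreated. No auxin-treated group overlapped its untreated group in these lines. The differences were -1.73 ± 0.13 in SUZ12 (adjusted p = 1.53e-10), -0.49 ± 0.11 in MTF2 (adjusted p = 0.00951) and -1.01 ± 0.11 in JARID2 NPC (adjusted p = 6.36e-07). The MTF2 call was lost without untreated MTF2 library 2 or auxin-treated MTF2 library 3, at adjusted p of 0.0526 to 0.0556, and the effect in the MTF2 line beyond that in untagged NPC was -0.22 ± 0.16 (adjusted p = 0.570). Auxin-treated means were 28.5%, 70.8% and 47.7% of untreated means in the SUZ12, MTF2 and JARID2 lines. Untagged NPC had 22.8, 23.04 and 17.5 TPM with auxin, against 25.6, 25.4 and 25.0 TPM untreated; all auxin-treated libraries were lower, with a difference of -0.27 ± 0.11 that was not called (adjusted p = 0.649). The 5 highest group means, from 25.3 ± 0.325 TPM in untreated untagged to 16.7 ± 1.45 TPM in auxin-treated MTF2 NPC, overlapped their neighbours. Below them stood untreated JARID2 NPC at 11.2 ± 0.863 TPM, apart from both neighbours, and then auxin-treated SUZ12 (6.19 ± 0.315 TPM) and auxin-treated JARID2 NPC (5.32 ± 0.696 TPM), which overlapped.

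Hoxd3, the HoxD gene of paralog group 3, known in mouse for patterning the first cervical vertebrae, fell in all 3 degron lines. It had 2.01 and 1.51 TPM in auxin-treated SUZ12 NPC, against 6.18, 4.43 and 7.13 TPM in untreated SUZ12 NPC. In MTF2 NPC it had 2.62, 4.24 and 2.55 TPM with auxin, against 9.68, 11.5 and 8.18 TPM untreated. In JARID2 NPC it had 0.790, 1.06 and 0.615 TPM with auxin, against 3.42, 1.98 and 3.02 TPM untreated. In each of these lines the auxin-treated libraries were all below the untreated ones. The differences were -1.49 ± 0.25 in SUZ12 (adjusted p = 2.84e-05), -1.52 ± 0.22 in MTF2 (adjusted p = 0.000203) and -1.31 ± 0.22 in JARID2 NPC (adjusted p = 0.000128). Auxin-treated means were 29.8%, 32.0% and 29.2% of untreated means in the SUZ12, MTF2 and JARID2 lines. Untagged NPC had 8.44, 10.0 and 6.82 TPM with auxin, against 10.8, 9.15 and 7.68 TPM untreated, which overlapped (-0.13, adjusted p = 0.943). Group means ran from 9.80 ± 1.68 TPM in untreated MTF2 NPC to 0.820 ± 0.222 TPM in auxin-treated JARID2 NPC, and breaks without overlap lay between untreated SUZ12 (5.91 ± 1.37 TPM) and auxin-treated MTF2 NPC (3.13 ± 0.955 TPM) and above auxin-treated JARID2 NPC.

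**Figure D3:**
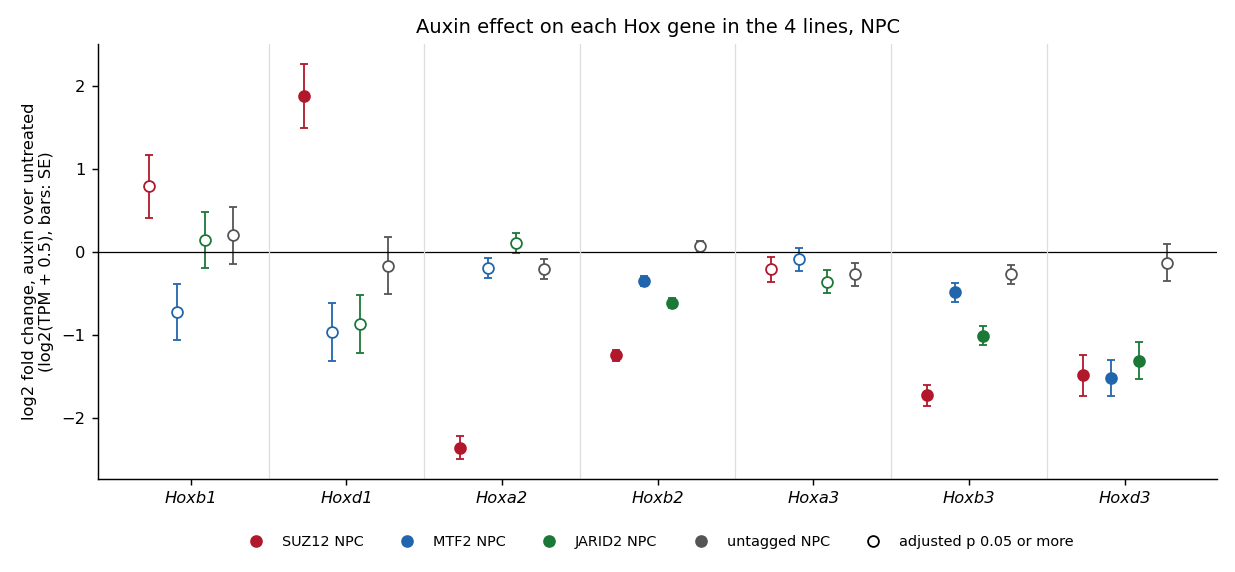
Auxin minus untreated difference on the log2(TPM + 0.5) scale for each Hox gene in NPC of the 4 lines; bars on points are 1 standard error from limma and filled points passed adjusted p under 0.05. Hoxd3 lies between -1.52 and -1.31 in the 3 degron lines, while Hoxa2 is at -2.36 in the SUZ12 line and between -0.20 and 0.11 in the others.

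Summed over the 7 genes, auxin-treated SUZ12 NPC had 74.9 ± 3.83 TPM, against 193 ± 7.01 TPM untreated. The sum was 152 ± 13.4 TPM in auxin-treated against 196 ± 5.87 TPM in untreated MTF2 NPC, 114 ± 5.64 against 151 ± 15.5 TPM in JARID2 NPC, and 223 ± 8.71 against 229 ± 7.77 TPM in untagged NPC. Hoxa2 and Hoxb2 together made up 75.5% of the sum in auxin-treated and 82.7% in untreated SUZ12 NPC, so the sum mostly describes paralog group 2. These are bulk cultures, in which fewer cells expressing a gene and less RNA per cell cannot be told apart.

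The untagged line measures auxin itself, so each degron line's auxin effect was also set against that of untagged NPC. For the SUZ12 line 5 of 7 genes differed from untagged NPC, where 43.5% of all genes did. The differences of effects were 2.04 ± 0.52 for Hoxd1 (adjusted p = 0.00323), -2.16 ± 0.18 for Hoxa2 (adjusted p = 4.43e-09), -1.32 ± 0.09 for Hoxb2 (adjusted p = 2.17e-10), -1.46 ± 0.17 for Hoxb3 (adjusted p = 4.16e-07) and -1.36 ± 0.33 for Hoxd3 (adjusted p = 0.00221). For the JARID2 line 3 of 7 differed, where 9.04% of genes did, namely Hoxb2 by -0.69 ± 0.09 (adjusted p = 1.51e-05), Hoxb3 by -0.74 ± 0.16 (adjusted p = 0.00388) and Hoxd3 by -1.19 ± 0.31 (adjusted p = 0.0183). For the MTF2 line 2 of 7 differed, where 1.4% of genes did, namely Hoxb2 by -0.42 ± 0.09 (adjusted p = 0.0162) and Hoxd3 by -1.39 ± 0.31 (adjusted p = 0.0279). The tests share the untagged libraries and are not independent of each other. Some of them rest on single libraries. Hoxd3 in the MTF2 line lost its call without any 1 of 7 of the 12 libraries (untreated untagged 2 or 3, auxin-treated untagged 1 or 2, untreated MTF2 2, auxin-treated MTF2 1 or 3), at adjusted p of 0.0571 to 0.0771. Hoxb2 in the MTF2 line lost it without untreated MTF2 library 3 (adjusted p = 0.0519). Hoxd3 in the JARID2 line lost it without untreated untagged 3, auxin-treated untagged 2, untreated JARID2 1 or auxin-treated JARID2 3 (adjusted p of 0.0509 to 0.0575).

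Auxin effects were then compared between degron lines. Against the JARID2 line, the SUZ12 line had a higher effect on Hoxd1 by 2.74 ± 0.52 (adjusted p = 0.000377) and lower effects on Hoxa2 by -2.47 ± 0.18 (adjusted p = 1.42e-09), Hoxb2 by -0.63 ± 0.09 (adjusted p = 2.11e-05) and Hoxb3 by -0.72 ± 0.17 (adjusted p = 0.00236), which is 4 of 7 genes where 31.1% of all genes differed. Against the MTF2 line, 5 of 7 differed where 43% of genes did. They were Hoxb1 by 1.52 ± 0.51 (adjusted p = 0.0204), Hoxd1 by 2.85 ± 0.52 (adjusted p = 0.000164), Hoxa2 by -2.17 ± 0.18 (adjusted p = 4.95e-09), Hoxb2 by -0.90 ± 0.09 (adjusted p = 1.07e-07) and Hoxb3 by -1.24 ± 0.17 (adjusted p = 4.46e-06). Hoxb1 lost that call without untreated SUZ12 library 3, auxin-treated SUZ12 library 1 or auxin-treated MTF2 library 2, at adjusted p of 0.0505 to 0.0724. Between the MTF2 and JARID2 lines 1 of 7 differed, where 9.64% of genes did. This was Hoxb3, with an effect 0.52 ± 0.16 higher in the MTF2 line (adjusted p = 0.0418). That call was lost without any 1 of 8 of the 12 libraries (untreated MTF2 1 or 3, auxin-treated MTF2 1 or 2, untreated JARID2 1 or 2, auxin-treated JARID2 2 or 3), at adjusted p of 0.0547 to 0.109. The effect on Hoxd3 was not called different between any pair of degron lines.

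Most of the other listed Hox genes that were tested rose in the SUZ12 line. Of 21 tested, 16 rose and 2 fell in auxin-treated against untreated SUZ12 NPC, with a median of 2.29 on the log2 scale beside -0.10 over all genes. The filter of 1 TPM in 2 libraries could be met by the 2 auxin-treated SUZ12 libraries alone. Of the 31 listed, 18 were at 0 in all untreated SUZ12 NPC libraries and 2 in all auxin-treated ones. The filter thus favours genes high with auxin there, which can tilt this count and median upward. Among those that rose, Hoxb9, a trunk-level gene, averaged 12.1 ± 2.13 TPM with auxin and had no read untreated, and Hoxd8, Hoxd9 and Hoxc13 had differences of 3.46 ± 0.28, 4.31 ± 0.35 and 4.30 ± 0.36 (adjusted p of 8.96e-10, 1.09e-09 and 1.50e-09). The genes that fell were Hoxb4, from the paralog group next to Hoxb3, at 28.2 ± 1.63 TPM with auxin against 53.0 ± 3.17 TPM untreated (-0.90), and Hoxc4 (-0.83). Hoxa4, Hoxd4 and Hoxa6 were not called. In JARID2 NPC 2 rose and 5 fell of 21, among them Hoxb4 at 15.1 ± 0.630 TPM with auxin against 31.3 ± 5.17 TPM untreated (-1.02 ± 0.10, adjusted p = 9.23e-08), Hoxd4 (-0.88 ± 0.18), Hoxb5 (-1.18 ± 0.26) and Hoxb8 (-0.78 ± 0.19). In MTF2 NPC 2 rose and 2 fell of 21, with Hoxd9 at 1.53 ± 0.32, Hoxa7 at 1.60 ± 0.37, Hoxd4 at -0.84 ± 0.18 and Hoxb5 at -0.93 ± 0.26. In untagged NPC none of 21 was called by limma. Over all genes, 23.9% were higher and 33% lower in the SUZ12 line. In the JARID2 line 25% were called and 15.7% were lower, and in the MTF2 line 8.14% and 3.11%.

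**Figure D4:**
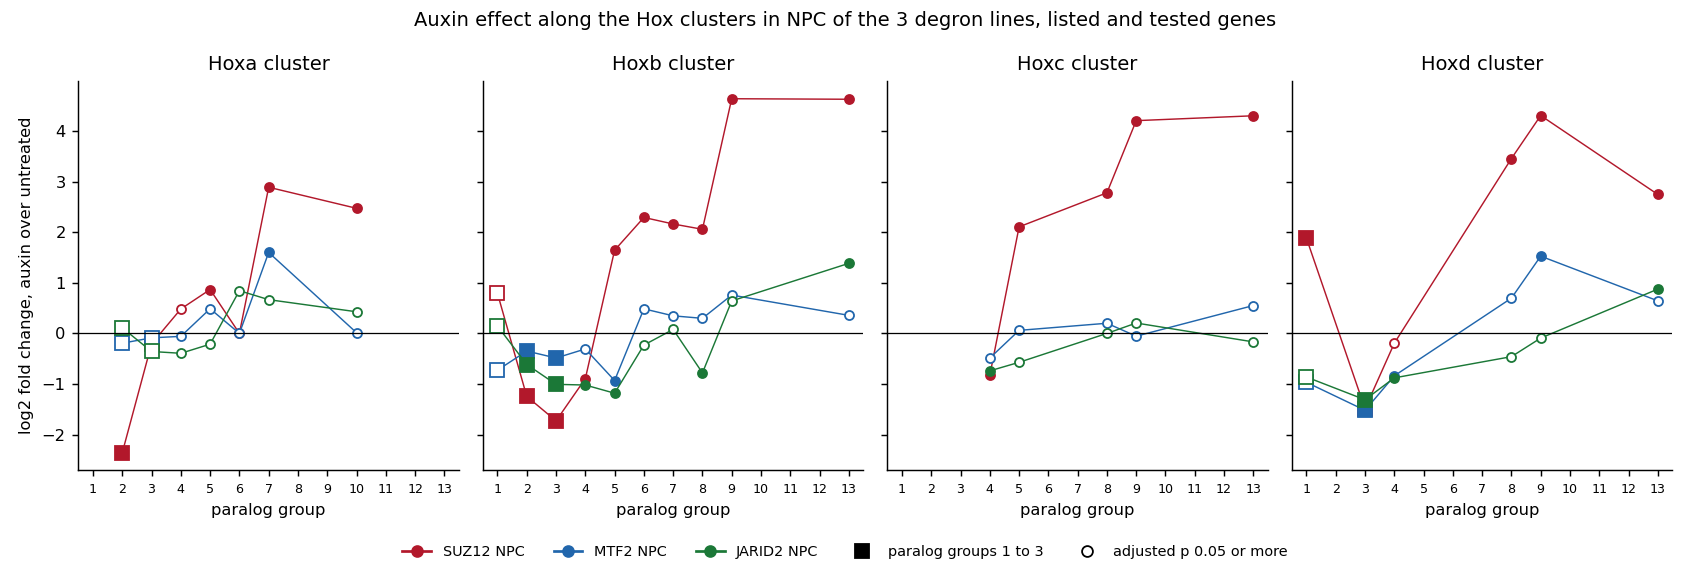
Auxin minus untreated difference on the log2(TPM + 0.5) scale (vertical axis) by paralog group (horizontal axis) in NPC of the SUZ12, MTF2 and JARID2 lines, 1 panel per Hox cluster. Large squares are the 7 Hox genes described here and filled points passed adjusted p under 0.05 by limma. Thin lines join the points of a line within a cluster. In the SUZ12 line Hoxb2, Hoxb3 and Hoxb4 lie below 0 and Hoxb9 at 4.64, while in the JARID2 line Hoxb2 to Hoxb5 lie between -1.18 and -0.61.

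Of the 9 HOX cofactor genes, most fell in the SUZ12 and JARID2 lines and few in the MTF2 line. In the SUZ12 line 8 of 9 fell and none rose, where 33% of all genes were lower, led by Meis3 (-1.50 ± 0.08, adjusted p = 9.85e-13), at 52.5 TPM with auxin against 149 TPM untreated, Pknox2 (-1.22 ± 0.07), Meis1 (-0.62 ± 0.05) and Pbx3 (-0.90 ± 0.08). In the JARID2 line 6 of 9 fell, where 15.7% of all genes were lower, led by Meis3 (-0.73 ± 0.07), Meis1 (-0.40 ± 0.05), Pbx2 (-0.24 ± 0.05) and Pknox2 (-0.23 ± 0.06), and in the MTF2 line 2 of 9 fell, where 3.11% were lower, Meis3 (-0.40 ± 0.07) and Meis2 (-0.24 ± 0.07). Set against the auxin effect in untagged NPC, limma called 7 of 9 lower in the SUZ12 line and 3 of 9 in the JARID2 line. In the MTF2 line it called 0 of 9 lower, and 1 had an unadjusted p under 0.05 (Meis3). Over all genes these contrasts called, in either direction, 43.5% in the SUZ12, 9.04% in the JARID2 and 1.4% in the MTF2 line. The 0 of 9 in the MTF2 line is near that share. Of 4 noncoding genes of the clusters that were tested in the SUZ12 line, the microRNA gene Mir196a-1 and Haglr rose (4.51 ± 0.66 and 1.22 ± 0.37) and Hoxaas2, which overlaps Hoxa3, fell (-0.97 ± 0.24); none was called in the MTF2 or JARID2 line. Genes of hindbrain segmentation went both ways, with 9 of 15 higher and 3 lower in the SUZ12 line, 2 higher and none lower in the MTF2 line, and 6 higher and 2 lower in the JARID2 line. Nr2f1, a nuclear receptor of the neural tube, fell in SUZ12 (-1.96 ± 0.08) and JARID2 NPC (-0.82 ± 0.07), and Epha2, an ephrin receptor, rose in SUZ12 (3.18 ± 0.16), MTF2 (0.78 ± 0.14) and JARID2 NPC (1.32 ± 0.14). Of 17 retinoic acid genes, 10 rose and 6 fell in the SUZ12 line, 2 rose and 3 fell in the MTF2 line, and 7 rose and 2 fell in the JARID2 line. Beside both lists, 23.9% of all genes were higher and 33% lower in the SUZ12 line. In the MTF2 line 8.14% were called and 3.11% were lower, and in the JARID2 line 25% and 15.7%. The 6 of 17 that fell in the SUZ12 line and the 2 of 17 in the JARID2 line are near those shares. The receptor gene Rarg rose in SUZ12 (2.64 ± 0.16) and JARID2 NPC (1.33 ± 0.14), and Rara fell in MTF2 (-0.31 ± 0.07) and JARID2 NPC (-0.43 ± 0.07).

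Markers of other cell states moved with the same groups. Over all genes, auxin against untreated called 23.9% higher and 33% lower in SUZ12 NPC. It called 25% in JARID2 NPC, 15.7% lower, and 8.14% in MTF2 NPC, 3.11% lower. In auxin-treated against untreated SUZ12 NPC, 10 of 10 pluripotency markers rose, with sums of 1434 to 1468 against 38.1 to 42.0 TPM, 11 of 11 neural progenitor markers fell (1881 to 1888 against 4792 to 4871 TPM), and 10 of 12 hindbrain motor neuron markers fell and 1 rose (166 to 168 against 1950 to 1979 TPM). Pou5f1, a pluripotency factor, was at 341 TPM with auxin against 7.88 TPM untreated, and the progenitor gene Hes5 at 5.57 TPM with auxin against 148 TPM untreated. Mesoderm (9 of 10 tested higher), endoderm (5 of 6 higher, 1 lower), trophectoderm (6 of 7 higher), neural crest (8 of 10 higher) and forebrain or midbrain markers (9 of 13 higher, 1 lower) also moved there. The filter of 1 TPM in 2 libraries could be met by the auxin-treated SUZ12 libraries alone, which favours markers that are high there. In JARID2 NPC 8 of 10 pluripotency markers rose (468 to 512 TPM with auxin against 133 to 180 TPM untreated), 7 of 11 progenitor markers fell and 1 rose (3155 to 3209 against 4382 to 4490 TPM), and 10 of 12 motor neuron markers fell (717 to 755 against 1211 to 1427 TPM). There 5 of 7 trophectoderm markers were higher (707 to 836 TPM with auxin against 386 to 488 TPM untreated), 2 of 6 endoderm markers were higher and 1 lower, 1 of 10 mesoderm markers was lower, 2 of 10 neural crest markers were higher, and 3 of 13 forebrain or midbrain markers were higher and 1 lower. In MTF2 NPC 4 of 10 pluripotency markers rose (151 to 171 TPM with auxin against 81.3 to 93.0 TPM untreated), 5 of 11 progenitor markers fell (4819 to 5161 against 4921 to 5232 TPM), and 7 of 12 motor neuron markers fell (1283 to 1431 against 1620 to 1761 TPM). There 5 of 10 mesoderm markers were higher (106 to 114 TPM with auxin against 67.8 to 81.5 TPM untreated), as were 4 of 6 endoderm (68.8 to 81.7 against 44.6 to 52.4 TPM), 3 of 7 trophectoderm (197 to 205 against 113 to 120.3 TPM) and 1 of 10 neural crest markers, and 3 of 13 forebrain or midbrain markers were higher and 1 lower. In untagged NPC limma called no gene of these lists, and pluripotency sums were 48.3 to 63.2 TPM with auxin against 54.1 to 59.9 TPM untreated. No pluripotency, progenitor or motor neuron marker was at 0 in all libraries of any NPC group. Their part in the Hox results was not tested.

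Tagged lines differed from the untagged line before auxin. In untreated JARID2 NPC 3 of 7 Hox genes were lower than in untreated untagged NPC, where 23.8% of genes differed and 12% were lower. They were Hoxb2 at 85.6 ± 5.10 against 134 ± 6.60 TPM (-0.64 ± 0.06, adjusted p = 8.96e-08), Hoxb3 at 11.2 ± 0.863 against 25.3 ± 0.325 TPM (-1.15 ± 0.11, adjusted p = 1.02e-07) and Hoxd3 at 2.81 ± 0.743 against 9.22 ± 1.57 TPM (-1.57 ± 0.22, adjusted p = 1.53e-05). These are the genes that auxin lowered further in that line. Hoxa2, at 42.8 ± 10.1 against 53.0 ± 1.02 TPM, was not called (-0.33, adjusted p = 0.0552), but was called lower with either replicate block, median-of-ratios scaling and voom (adjusted p of 0.0161 to 0.0389). In the same comparison 8 of 10 pluripotency markers were higher and 10 of 12 motor neuron and 7 of 11 progenitor markers lower, and their part in the Hox differences was not tested. In untreated MTF2 NPC 1 of 7 was lower, where 8.76% of genes differed, namely Hoxb2 at 105 ± 8.37 against 134 ± 6.60 TPM (-0.35 ± 0.06, adjusted p = 0.00110). In untreated SUZ12 NPC limma called 0 of 7 where it called 0.814% of genes, although Hoxb2, Hoxa3 and Hoxd3 had unadjusted p under 0.05 and voom called all 3, with Hoxa3 closest at 3.70 ± 0.0940 against 5.75 ± 0.570 TPM (-0.57, adjusted p = 0.0511). These comparisons share the untagged libraries, and the untreated JARID2 and MTF2 libraries also enter the auxin effects above.

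These genes were higher in NPC than in ESC. In untreated NPC against untreated ESC 7 of 7 were higher in the SUZ12 line, where 50.2% of 17760 genes were higher, 7 of 7 in the MTF2 line (48.2%), 6 of 7 in the JARID2 line (47.1%) and 6 of 7 in the untagged line (47.6%). None of the 7 reached 1 TPM in 2 ESC libraries, so they entered this fit through their NPC libraries. That favours higher calls, and the counts are no independent comparison with the shares of all genes. Hoxb2 showed the largest difference, 7.86 ± 0.16 in SUZ12, 7.72 ± 0.16 in MTF2, 7.05 ± 0.16 in JARID2 and 7.89 ± 0.16 in untagged cultures. Hoxa2 followed in 4 lines with 6.49, 6.13, 6.19 and 5.92, and Hoxb3 with 5.47, 5.54, 4.34 and 5.65, for SUZ12, MTF2, JARID2 and untagged cultures. Hoxd3 (3.66, 4.35, 2.59 and 4.14) and Hoxa3 (2.98, 3.39, 3.44 and 3.37) came next, and the smallest of these differences, Hoxd3 in the JARID2 line, had an adjusted p of 1.88e-14. Hoxb1 differed by 1.70 ± 0.29, 1.54 ± 0.29, 1.13 ± 0.29 and 1.76 ± 0.29 in the same order, all called. Hoxd1 was called higher in SUZ12 (0.97 ± 0.36, adjusted p = 0.0154) and MTF2 cultures (1.15 ± 0.36, adjusted p = 0.00467) and not in JARID2 (0.68 ± 0.36, adjusted p = 0.0914) or untagged cultures (0.74 ± 0.36, adjusted p = 0.0616). Its SUZ12 call was lost without untreated SUZ12 ESC library 1 or 2 or untreated SUZ12 NPC library 1 (adjusted p of 0.0567 to 0.121), and its MTF2 call without untreated MTF2 NPC library 2 (adjusted p = 0.0514). The median of all genes shifted by 0.28 to 0.36 in these comparisons, and every called Hox difference was larger than that.

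Fitted differences of genes without reads in ESC depend on the added 0.5 TPM. Where the untreated ESC libraries of a line held no read, a bound was taken from 3 reads over the group. Hoxa2 was at least 287-fold, Hoxb2 at least 770-fold, Hoxb3 at least 688-fold, Hoxd3 at least 62.4-fold and Hoxb1 at least 9.24-fold higher in untreated SUZ12 NPC than in untreated SUZ12 ESC. Hoxb2 was at least 356-fold and Hoxd3 at least 52.4-fold higher in MTF2 NPC, and Hoxb1 at least 6.30-fold higher in untagged NPC. These bounds cover counting error only.

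In ESC all 7 genes were at or near 0 and none passed the filter of 1 TPM in 2 libraries, so none entered the ESC tests, in which 6.83% of 15104 genes were called in the SUZ12 line, 1.09% in the MTF2 line, 0.298% in the JARID2 line and 0.212% in the untagged line. Over the 24 ESC libraries Hoxa3 was read most, with 71 reads, a median of 0.162 TPM and 2 libraries at 0. Hoxd1 had 36 reads, a median of 0.262 TPM, a highest value of 1.09 TPM and 6 libraries at 0. The remaining genes were at 0 in many libraries. Hoxa2 had 16 reads and 12 libraries at 0, Hoxb2 15 reads and 13 at 0, Hoxb1 8 reads and 17 at 0, Hoxb3 7 reads and 19 at 0, and Hoxd3 4 reads and 20 at 0. The highest single values of these were 0.773 TPM for Hoxa2, 0.691 for Hoxb2, 0.348 for Hoxb1, 0.120 for Hoxb3 and 0.177 for Hoxd3.

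Without the filter, Hoxb2 was the 1 gene of 7 called in auxin-treated against untreated SUZ12 ESC, where 3.23% of genes were called. It had 0.691, 0.568 and 0.208 TPM in auxin-treated SUZ12 ESC, against 0 in all 3 untreated SUZ12 ESC libraries, which is 7 reads against none. The difference was 0.95 on the log2 scale (adjusted p = 0.0195). Set against the untagged line the difference of effects was 0.97 and was not called (adjusted p = 0.316). In NPC the same gene fell with auxin in the SUZ12 line.

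Across the 8 NPC group means, Hoxb2, Hoxb3 and Hoxd3 varied together, with Pearson r of 0.932 for Hoxb2 with Hoxb3, 0.950 for Hoxb3 with Hoxd3 and 0.908 for Hoxb2 with Hoxd3. These are descriptions over 8 points that share lines and libraries. For Hoxa2, the mean of auxin-treated SUZ12 NPC (8.26 TPM) lay far below the other 7 (41.6 to 53.0 TPM), a gap that its r values in NPC include. Over all 16 group means, r was highest with Fam181a (0.998), Sox1 (0.997) and Foxb1 (0.997) for Hoxa2, with Stard13, Ano10 and Rsph3a (0.998 each) for Hoxb2, with Gprin1, Adamts6 and Tmem132e (0.999 each) for Hoxb3, with Tmem43 (0.995), Dusp4 (0.995) and Smo (0.995) for Hoxa3, and with Krt90 (0.993), Arhgap36 (0.991) and Begain (0.989) for Hoxd3. For the sparsely read genes it was highest with Edn3 (0.967), Selenbp1 (0.964) and Col23a1 (0.964) for Hoxb1, and with H60b (0.919), Espn (0.890) and Ano4 (0.886) for Hoxd1. All 16 points include the step between ESC and NPC. Within the 8 NPC groups the closest genes were Clcn1 (0.996), Cacng7 (0.993) and Nkx2-9 (0.992) for Hoxa2, Rnd2 (0.990), Stmn1 (0.989) and Stmn4 (0.988) for Hoxb2, Ap3b2 (0.999), Dbnl (0.996) and Meis1 (0.996) for Hoxb3, and Por (0.993), Rara (0.985) and Sdhb (0.983) for Hoxd3, each chosen from 14629 genes.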

How the data were processed

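The deposited table holds TPM values that the authors computed for 35856 gene symbols in 47 libraries. STAR 2.6.1d and the mm10 genome are named in the submitters' processing notes; the counting tool is not given in the sources used here. Libraries were strand-specific by the dUTP method, per the labels' protocols. The 7 genes and the gene lists were chosen with earlier results of these data known. The 8 groups of a stage entered 1 limma fit (limma 3.58.1, R 4.3.3) of log2(TPM + 0.5), with robust, intensity-trended variances, on genes that reached 1 TPM in 2 or more libraries (16469 in NPC, 15104 in ESC), and NPC against ESC used 16 groups and 17760 genes. The same steps were tested on simulated data. Whole reads were recovered from the steps of the TPM values, within 0.001 for 100% of 844490 values above 0, and gave depths of 3237115 to 8707922 (median 5391121). Limma-voom on those reads called 9962 genes for auxin in SUZ12 NPC, where the TPM fit called 9368. Named genes of each list are the called members with the smallest p, at most 4 per comparison, and the genes most like each Hox gene are the 3 with the highest Pearson r of group means, leaving out unnamed gene models. Replicate numbers did not pair libraries, with correlations of deviations from -0.03 to 0.09 over 23 pairs. Alternatives were another pseudocount (0.1 or 1), no filter, median-of-ratios scaling, voom, a replicate block, only the compared groups, and each library left out.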

Additional observations from a re-analysis of the deposited data

Results flagged for a closer look

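Differences of auxin effects between lines were called for these Hox genes in NPC by limma, and are listed as values on the log2(TPM + 0.5) scale because an effect in 1 line differed from that in another. Beyond the untagged line, the auxin effect of the SUZ12 line differed by 2.04 for Hoxd1, -2.16 for Hoxa2, -1.32 for Hoxb2, -1.46 for Hoxb3 and -1.36 for Hoxd3. That of the MTF2 line differed by -0.42 for Hoxb2 and -1.39 for Hoxd3, and that of the JARID2 line by -0.69 for Hoxb2, -0.74 for Hoxb3 and -1.19 for Hoxd3.

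The SUZ12 effect minus the JARID2 effect was 2.74 for Hoxd1, -2.47 for Hoxa2, -0.63 for Hoxb2 and -0.72 for Hoxb3. The SUZ12 effect minus the MTF2 effect was 1.52 for Hoxb1, 2.85 for Hoxd1, -2.17 for Hoxa2, -0.90 for Hoxb2 and -1.24 for Hoxb3. The MTF2 effect minus the JARID2 effect was 0.52 for Hoxb3. In the 3 sets that include the SUZ12 line, the values of Hoxd1 and Hoxa2 had opposite signs. The calls that a single library decides are named beside their values in the results.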

How the results depend on the processing

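Counts of the 7 genes called kept within 1.5 times of the reported count in 203 of 216 pairs of comparison and setting. These pairs include the ESC comparisons, where 0 of the 7 genes passed the filter. Their counts were fixed at 0 in every setting that kept the filter, so those pairs could not move. No single-gene difference that was checked changed direction under a setting other than leaving out a library. Differences between auxin effects were checked only for genes called in the reported fit, and single genes in ESC were not checked. The counts that moved were these. Auxin in SUZ12 ESC called 1 without the filter, instead of 0. The MTF2 minus JARID2 contrast called 0 with pseudocount 1, without the filter, with median-of-ratios scaling and with only the compared groups, and 2 with either replicate block, instead of 1. Untreated SUZ12 against untagged NPC called 1 with pseudocount 0.1, 2 with median-of-ratios scaling and 3 with voom, instead of 0. Untreated MTF2 against untagged NPC called 2 with pseudocount 1 and with either replicate block, instead of 1. The replicate block moved no other count by over 1.5 times. With a library left out, MTF2 beyond untagged called 1 to 2 and MTF2 minus JARID2 0 to 2.

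Hoxb1 in auxin-treated SUZ12 NPC, not called in the reported fit, was called with pseudocount 1 (0.64, adjusted p = 0.0487), median-of-ratios scaling (0.90, adjusted p = 0.0459), voom (1.16, adjusted p = 0.0175) and only the compared groups (0.79, adjusted p = 0.0295). Hoxd1 in JARID2 NPC was called lower with pseudocount 0.1 (-2.03, adjusted p = 0.0118), and Hoxa3 in JARID2 NPC with voom (-0.34, adjusted p = 0.0387). Hoxa2 in untreated JARID2 against untagged NPC was called lower with the replicate block by titles (-0.33, adjusted p = 0.0258) or by library names (adjusted p = 0.0273), median-of-ratios scaling (-0.31, adjusted p = 0.0389) and voom (-0.31, adjusted p = 0.0161). Hoxd1 in NPC against ESC was not called in the SUZ12 line with median-of-ratios scaling (adjusted p = 0.0542) or in the MTF2 line with pseudocount 0.1 (adjusted p = 0.0691) and voom (adjusted p = 0.0587). Median-of-ratios scaling moved the median of all genes from -0.10 to 0.02 for auxin in SUZ12 NPC. The cause of these changes was not tested.

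Among the single-gene differences checked, directions that changed without 1 library belonged to uncalled genes. The ranges were -0.26 to 0.019 for Hoxa3 with auxin in MTF2, -0.16 to 0.38 for Hoxb1 and -0.056 to 0.28 for Hoxa2 in JARID2, and -0.025 to 0.40 for Hoxb1, -0.30 to 0.065 for Hoxd1 and -0.25 to 0.0093 for Hoxd3 in untagged NPC. For untreated lines against untagged NPC they were -0.24 to 0.10 for Hoxb1 in SUZ12, -0.035 to 0.20 for Hoxd3 in MTF2 and -0.43 to 0.11 for Hoxb1 in JARID2. Depth limits Hoxb1 and Hoxd1 in NPC and all 7 genes in ESC, where no library held more than 8 reads of any of them.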
